A study of Homo sapiens with 12 samples.

Results

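Retained-intron transcripts are spliced RNAs that keep one or more introns which the protein-coding transcripts of the same gene remove. The set described here was taken from a table of 194142 transcripts. Of these, 158359 matched GENCODE release 29 by identifier, and 25980 were annotated there as retained_intron. The rule kept those whose mean abundance over all 12 libraries was at least 1 TPM, a measure of abundance that corrects for transcript length and library depth. It left 9316 members from 4228 genes. The level that chose them is therefore not a finding, and a member close to the threshold may have passed through the group in which it was high.

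All RNA was from cultured HEK293T cells, a line derived from human embryonic kidney, and was sequenced from stranded mRNA libraries in 2 experiments with 3 replicates per group. The first used siRNA: siControl libraries come from cells with the control siRNA, and siPOLR3A libraries from cells in which the siRNA targeted POLR3A, the gene for the largest subunit of RNA polymerase III. These cells were collected after 2 days. In the other, cells were given 0.1% DMSO (the vehicle) or 25 µM ML60218, a small-molecule inhibitor of RNA polymerase III, and were collected after 4 hours. All 12 libraries are of this line, and nothing in the labels says that replicates came from separate cultures, so the p-values measure the spread between these libraries, which may be technical.

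Introns are removed in the nucleus by the spliceosome, which reads short sequences at both ends of each intron. A transcript that keeps an intron often gains an early stop codon. Some such RNAs are degraded in the cytoplasm by nonsense-mediated decay, and others, called detained introns, wait in the nucleus and are common in genes for splicing factors. Several genes of SR proteins, hnRNP proteins and CLK kinases are known to control their own output in this way.

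The depth was between 37008325 and 49479476 estimated reads per library. POLR3A itself had 16.2, 15.3 and 14.8 TPM in the siControl libraries and 3.74, 3.56 and 2.85 TPM in the siPOLR3A libraries. Genes that mark HEK293T were present in every library (VIM 267 to 435 TPM, NEFM 32.7 to 102, LIN28B 23.8 to 72.8, ENO2 17.2 to 41.4, PAX2 3.36 to 5.19). Of the markers of other cell types, PTPRC was listed at 0 throughout, ALB and UMOD did not pass 0.255 and 0.0572 TPM, and the fibroblast gene COL1A1 stood at 18.2 to 28.1 TPM.

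The retained sequence itself was read from the GENCODE 29 transcript sequences, and 18 introns are shown because they lie in members that the results turn on. Coordinates are on GRCh38, each sequence runs 5′ to 3′ on the gene's strand, the first and last 3 bases are exon, and capitals mark the first 6 bases of the intron (the 5′ splice site) and its final AG (the 3′ splice site). The first 7 introns are long, so only their ends are given: up to 27 bases of intron beside the exon on each side. Members of TFPI, PABPN1 and TBX2 rose in share after the POLR3A siRNA, and those of DDX5 and IGF2R fell.
TFPI-211, intron at chr2:187484217-187484810, minus strand, 5′ end: gtcGTAAGTttatttcttatttcattttag
TFPI-211, the same intron, 3′ end: attttaattggctgtatttttttccAGcga
DDX5-215, intron at chr17:64500774-64502009, minus strand, 5′ end: tagGTTAGTacaaactcgcattcatggctt
DDX5-215, the same intron, 3′ end: attttgccacactgcaacaccttacAGatg
IGF2R-207, intron at chr6:160088148-160089106, plus strand, 5′ end: gagGTCAGGagactgggggctcagagcggg
IGF2R-207, the same intron, 3′ end: ctgtagcctgtgcttccctcctcctAGgtt
PABPN1-206, intron at chr14:23323067-23323376, plus strand, 5′ end: aatGTACGTactggggctctgactggggtt
PABPN1-206, the same intron, 3′ end: cctgtgaaatttttctcctctcatcAGgtg
TBX2-203, intron at chr17:61404770-61405201, plus strand, 5′ end: gagGTGAGGgtcggaccggaggagggacag
TBX2-203, the same intron, 3′ end: tgtaatccgcgcgccctctccccgcAGctg
CLK1-210, intron at chr2:200859747-200860124, minus strand, 5′ end: gatGTATAGaatatttttcaacacttatta
CLK1-210, the same intron, 3′ end: tgactgagatttatttctctcttttAGatg
CLK1-210, another intron at chr2:200860216-200861237, minus strand, 5′ end: gggGTATGAacgtttttaaaacattttgga
CLK1-210, the same intron, 3′ end: ttggtgccgcccacttgacgtttccAGaag

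The other 11 introns are short enough to be shown whole, and none overlaps an untranslated exon of its gene in the annotation. The first 7 lie in members called in the siRNA experiment, and the last 4 in members whose level was called in the ML60218 experiment.
HMGN1-214, intron at chr21:39348340-39348421, minus strand: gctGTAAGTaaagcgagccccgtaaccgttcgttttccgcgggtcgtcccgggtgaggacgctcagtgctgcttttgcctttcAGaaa
HMGN1-214, another intron at chr21:39348452-39348544, minus strand: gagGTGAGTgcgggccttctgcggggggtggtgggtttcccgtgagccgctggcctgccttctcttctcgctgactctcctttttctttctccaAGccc
EIF4A1-210, intron at chr17:7577166-7577343, plus strand: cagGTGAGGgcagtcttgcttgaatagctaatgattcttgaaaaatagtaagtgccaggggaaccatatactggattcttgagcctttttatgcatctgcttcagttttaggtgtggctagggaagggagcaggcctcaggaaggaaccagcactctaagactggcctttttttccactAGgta
A1BG-202, intron at chr19:58352185-58352282, minus strand: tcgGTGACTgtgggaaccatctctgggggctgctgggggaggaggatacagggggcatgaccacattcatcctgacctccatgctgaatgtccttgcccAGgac
DDX3X-241, intron at chrX:41345325-41345403, plus strand: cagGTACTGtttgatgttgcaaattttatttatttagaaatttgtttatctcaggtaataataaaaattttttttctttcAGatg
ITGA2B-205, intron at chr17:44383947-44384084, minus strand: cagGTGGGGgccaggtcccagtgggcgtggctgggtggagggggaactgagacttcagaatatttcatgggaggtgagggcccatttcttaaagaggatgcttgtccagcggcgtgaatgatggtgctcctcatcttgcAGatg
NSMF-202, intron at chr9:137452587-137452735, minus strand: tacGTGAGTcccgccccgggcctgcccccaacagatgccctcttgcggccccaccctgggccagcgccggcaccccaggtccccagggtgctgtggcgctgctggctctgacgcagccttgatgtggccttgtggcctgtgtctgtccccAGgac
MARS-212, intron at chr12:57512104-57512235, plus strand: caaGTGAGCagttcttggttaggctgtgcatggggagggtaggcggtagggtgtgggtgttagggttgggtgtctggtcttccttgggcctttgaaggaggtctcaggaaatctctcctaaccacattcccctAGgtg
SHMT2-212, intron at chr12:57231561-57231712, plus strand: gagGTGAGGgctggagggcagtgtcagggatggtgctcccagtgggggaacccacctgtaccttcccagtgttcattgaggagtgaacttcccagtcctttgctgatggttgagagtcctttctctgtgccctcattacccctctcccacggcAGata
XPOT-206, intron at chr12:64425183-64425337, plus strand: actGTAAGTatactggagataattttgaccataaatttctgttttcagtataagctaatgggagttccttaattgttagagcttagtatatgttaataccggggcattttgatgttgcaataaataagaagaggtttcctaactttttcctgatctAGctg
CCNL1-214, intron at chr3:157149978-157150064, minus strand: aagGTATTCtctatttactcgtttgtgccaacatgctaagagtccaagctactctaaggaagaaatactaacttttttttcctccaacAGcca

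These introns differ widely in composition. The DDX3X intron is 20.3% G or C and 79 bases long, whereas the NSMF intron is 71.8% G or C and 149 bases long.

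Most members do not hold a complete intron. Among the 9068 members whose version in the table is that of GENCODE 29, 3329 span at least 1 whole intron of a protein-coding transcript of their gene (2355 hold 1 and 974 hold 2 or more), and 5739 span none. Of the latter, 5700 could be compared with coding exons, and 5518 of them start or end inside an intron. Reads from unspliced RNA of a gene fall on the same bases, and their part in the levels given here was not tested.

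The 4273 distinct introns that members retain were short. Their median length was 233 bases (quartiles 115 and 511), against 1409 bases for the 69384 other introns of the same genes. Introns under 150 bases made up 33.7% of the retained and 10.0% of the other introns. Where several coding introns overlapped in a member, the shortest was counted, which lowers the median of the retained introns. An intron also had to lie whole inside an exon of a member, and the median member is 811 bases long, which favours short introns. Introns in which a member only starts or ends were counted among the others. How much of the difference in length comes from these choices was not tested. The median G and C content of the retained introns was 56.6%.

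**Figure D1:**
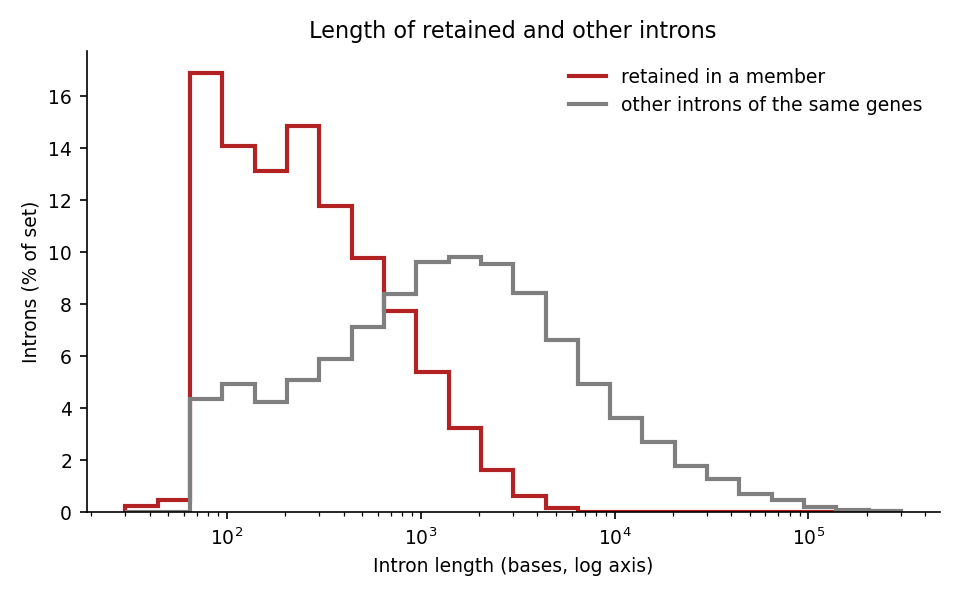
Length of introns in bases (x, log axis) against the percent of introns in each set (y) for the 4273 introns retained in a member (red) and the 69384 other introns of the same genes (grey). The retained set is shifted to shorter lengths, with medians of 233 and 1409 bases. To count as retained, an intron had to lie whole inside an exon of a member, which favours short introns.

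The splice sites of retained introns were mostly of the common kind. They began with GT and ended with AG in 97.5% of introns, with GC and AG in 1.22%, and with AT and AC in 0.211%. GTGAGT opened 14.1% of them and GTAAGT, which pairs along its whole length with the start of the U1 snRNA, 7.86%. Only 44 (1.03%) opened with GTATCC or ATATCC, the start typical of introns read by the minor spliceosome. All these letters were matched on the gene's strand at the intron's first base only.

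Members were weakly expressed beside the coding transcripts of their genes. Their median level was 2.65 TPM, 3447 (37.0%) were under 2 TPM, 891 reached 10 TPM and 29 reached 100 TPM. The median member gave 6.33% of its gene's TPM (quartiles 3.09% and 12.4%). Only 165 gave 50% or more, and 580 stood above the summed protein-coding rows of their gene. A median member had 61.0 estimated reads per library, and 700 (7.51%) were listed at 0 in at least 1 library. The coefficient of variation between replicates had a median of 15.3% to 18.6% for members in the 4 groups and 9.86% to 12.6% for protein-coding transcripts, so the error on a member is the larger.

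EEF1A1-206, from the gene of a translation elongation factor, had the highest mean, 3137 TPM and 96.7% ± 0.143 (SD, n = 3) of its gene in siControl. Its row in the table is a longer version than the GENCODE 29 one (1825 bases), so its class may have changed. RPL14-208 followed with 79.5% ± 0.948 of the gene in siControl and 79.4% ± 1.15 in siPOLR3A, then RPL4-203 and RPL4-205, from genes of large-subunit ribosomal proteins, and NPM1-210, from the gene of the nucleolar protein nucleophosmin. None of these 5 was called in share in either experiment. At the threshold, GTPBP1-208 (1.0002 TPM), SLC22A5-207 (1.0005 TPM) and SRPK1-201 (1.0006 TPM) lay just inside a mean of 1 TPM, and RFWD3-206 (0.99986 TPM), UBXN1-207 (0.9999 TPM) and SEC11C-206 (0.99991 TPM) just outside it.

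Summed over all members, the retained-intron rows took a similar part of each transcriptome. Their share of all TPM was 5.95%, 5.75% and 5.83% in siControl and 6.11%, 5.91% and 6.05% in siPOLR3A, and these ranges overlap. With DMSO it was 5.29%, 5.28% and 5.27%, and with ML60218 5.73%, 5.54% and 5.80%, so that all 3 treated libraries were above all 3 vehicle libraries. As a share of their own genes' TPM, members gave 14.9% ± 0.335 in siControl, 15.4% ± 0.217 in siPOLR3A, 12.5% ± 0.308 with DMSO and 13.3% ± 0.579 with ML60218, and on this scale the lowest siPOLR3A library (15.216%) lay just above the highest siControl library (15.195%), while the DMSO and ML60218 libraries overlap. No test was made of these sums, since the members were chosen by their level.

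**Figure D2:**
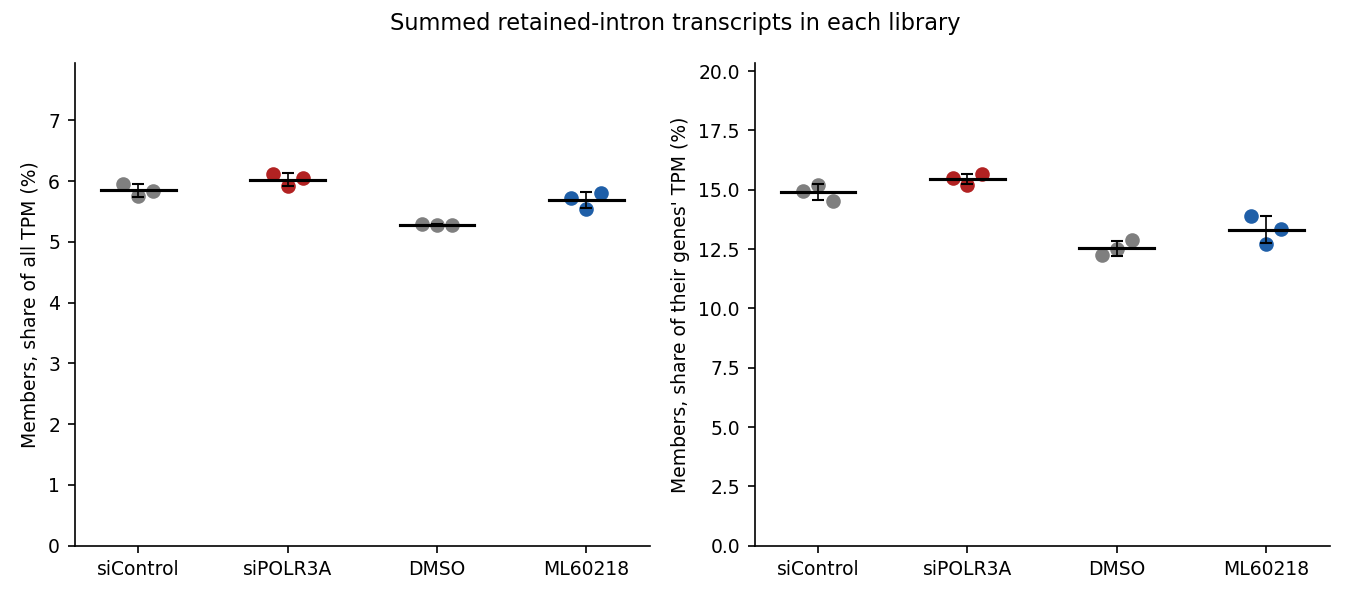
Summed members as a percent of all TPM (left) and as a percent of the TPM of their genes (right), one point per library, in the 4 groups. Horizontal lines are means and bars 1 SD of 3 libraries. The ML60218 libraries (5.54% to 5.80%) lie above the DMSO libraries (5.27% to 5.29%) on the left only.

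The first comparison asked which members changed their share of the gene after POLR3A was depleted. Share was tested as the log2 ratio of a transcript to the rest of its gene, over all 39705 transcripts with at least 1 TPM and at least 1 TPM in the rest of the gene. At an adjusted p under 0.05, 572 transcripts of all kinds were called (1.44%; 0.723% higher and 0.718% lower). Among the 9251 members tested, 67 rose and 20 fell (0.94%; 0.724% higher and 0.216% lower). The rising share of members equals that of all transcripts, and the falling share is below it. Groups without overlap in share were found in 2406 members (26.0%), against 26.4% of all transcripts, and the median log2 change was 0.0533 for members and 0.012 for all. At an unadjusted p under 0.05 there were 1446 members (15.6%; 9.7% higher and 5.93% lower), against 18.2% of all transcripts (9.47% higher and 8.74% lower).

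TFPI-211 had the greatest rise in percentage points among the called members. On the log2 scale 6 called members rose by more, from lower shares. TFPI encodes tissue factor pathway inhibitor, which restrains the start of blood clotting. The member gave 21.7%, 23.7% and 21.2% of the gene's TPM in siControl and 56.1%, 51.6% and 56.0% in siPOLR3A, without overlap (log2 2.05 ± 0.12 SE, adjusted p = 0.00576). Its own level rose from 3.84 to 7.03 TPM (log2 0.84 ± 0.04, adjusted p = 0.000136), while the summed coding rows of TFPI fell by 1.61 on the log2 scale (adjusted p = 1.9e-08). The share call held without each of the 6 libraries in turn (adjusted p 0.0191 to 0.0345).

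TMEM45A-207 rose from 40.5%, 39.1% and 36.9% to 61.3%, 60.9% and 68.1% of a gene for a transmembrane protein (adjusted p = 0.0247). CHD3-211, from the gene of a chromatin remodeller of the NuRD complex, rose from 24.7%, 22.8% and 25.5% to 48.8%, 46.6% and 43.3% (adjusted p = 0.0164). The coding rows of CHD3 fell by 2.02 (SE 0.05) on the log2 scale, while the member's own level was 9.24 and 10.8 TPM in the 2 groups (adjusted p = 0.117). UBQLN4-202, from a gene of a ubiquilin that carries proteins to the proteasome, went from 9.30%, 11.9% and 12.4% to 24.8%, 27.4% and 28.2% (adjusted p = 0.0227). Its coding rows fell by 1.38 and its level did not pass the test (6.02 and 6.86 TPM).

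SHOX2-205 and TBX2-203 come from genes of developmental transcription factors. SHOX2-205 had shares of 32.8%, 32.5% and 31.3% in siControl and 53.7%, 49.3% and 48.7% in siPOLR3A (adjusted p = 0.0228), and its level rose from 2.38 to 4.52 TPM (adjusted p = 0.00226). TBX2-203 had 31.9%, 28.1% and 29.9% in siControl and 42.9%, 45.6% and 41.8% in siPOLR3A (adjusted p = 0.0426). FANCM-203, of a Fanconi anaemia helicase gene, rose from 20.3% ± 3.25 to 42.3% ± 2.09 (adjusted p = 0.0274), but its row is not the version annotated in GENCODE 29.

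Within A1BG, members moved in opposite directions. A1BG encodes a plasma glycoprotein, and 2 of its members were called. A1BG-202, which spans most of the gene and keeps the 98-base intron shown above, rose from 11.7%, 12.6% and 10.3% to 26.5%, 27.1% and 26.0% (adjusted p = 0.0147). A1BG-204, a short transcript of 475 bases, fell from 84.6%, 82.9% and 86.6% to 68.5%, 68.1% and 67.8% (adjusted p = 0.0199). The gene's total was 10.4 and 10.5 TPM. Its coding rows were not tested, and took 0.36% of the gene in siControl.

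Among members that fell, DDX5-215 was the most abundant. DDX5 encodes an RNA helicase that takes part in splicing and is known for detained introns. DDX5-215 gave 52.5%, 52.4% and 49.9% of the gene in siControl and 34.4%, 31.8% and 36.3% in siPOLR3A (log2 -1.04 ± 0.12, adjusted p = 0.0264). Its level fell from 200 to 155 TPM (adjusted p = 0.00111) as the coding rows rose by 0.39 (adjusted p = 0.00082). The retained intron is the 1236-base one at chr17:64500774-64502009 whose ends are shown above.

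FBXO32-204, of a muscle-wasting ubiquitin ligase gene, fell from 58.6%, 64.5% and 65.6% to 34.5%, 38.1% and 25.1% (adjusted p = 0.0411), and its level from 12.1 to 2.57 TPM. Its coding rows were not called (log2 -0.07, adjusted p = 0.4). IGF2R-207, of the receptor that clears insulin-like growth factor 2 and sorts lysosomal enzymes, fell from 30.3%, 26.2% and 28.1% to 15.8%, 15.9% and 16.2% (adjusted p = 0.0263). Its coding rows fell too, by 1.15, and the member by more, 1.63 on the log2 scale. ITGA2B-205, of the platelet integrin alpha-IIb gene, fell from 24.9% ± 2.08 to 8.34% ± 2.34 (adjusted p = 0.0331).

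GPCPD1-205, ACSS2-223 and PRR5-211 completed the 8 greatest falls. ACSS2 encodes an acetyl-CoA synthetase, GPCPD1 a phosphodiesterase of choline metabolism and PRR5 a subunit of mTOR complex 2. GPCPD1-205 went from 31.0%, 29.6% and 24.7% to 13.8%, 13.8% and 13.5% while its own level was 1.67 and 1.61 TPM (not called), with a gene total of 5.88 TPM in siControl and 11.7 TPM in siPOLR3A. ACSS2-223 went from 24.4% ± 0.864 to 13.6% ± 1.65, and PRR5-211 from 29% ± 1.34 to 19.3% ± 0.828.

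**Figure D3:**
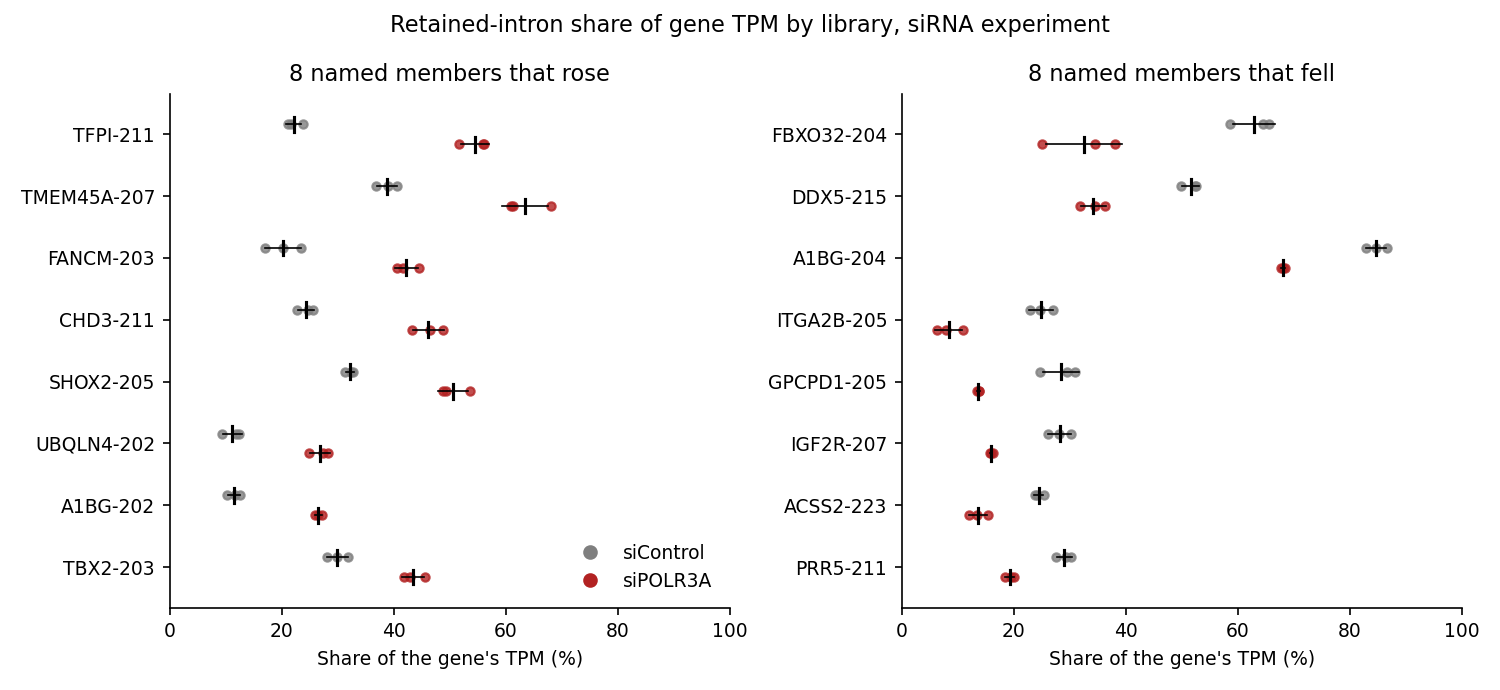
Share of the gene's TPM (x, percent) in the siControl (grey) and siPOLR3A (red) libraries for the 8 named members with the greatest rise (left) and the 8 with the greatest fall (right). Points are libraries, black ticks means and black lines 1 SD (n = 3). The groups do not overlap in any of the 16 members, which were chosen for that.

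Several genes had more than 1 member called, and these were picked out after their values were seen. HMGN1 encodes a nucleosome-binding protein that loosens chromatin. Its total TPM was 489 in siControl and 134 in siPOLR3A, with the coding rows lower by 2.53 (SE 0.03) on the log2 scale. HMGN1-216 rose in share from 6.28%, 6.77% and 6.31% to 18.6%, 19.2% and 19.7% (adjusted p = 0.00693), yet its level fell from 31.5 to 25.6 TPM (adjusted p = 0.00398). HMGN1-214, which holds the 82-base and 93-base introns, rose from 1.97%, 2.10% and 1.91% to 5.07%, 7.05% and 5.77%, and HMGN1-220 from 3.94% ± 0.213 to 9.07% ± 0.846. The log2 changes of the 3 levels were -0.33, -0.29 (not called, adjusted p = 0.362) and -0.69, against -2.53 for the coding rows. The HMGN1-216 call held without each of the 6 libraries (adjusted p 0.0322 to 0.0412).

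EIF4A1 encodes the helicase that unwinds mRNA leaders for translation, and 5 of its members rose in share. Their shares were small: EIF4A1-236 went from 1.99%, 1.95% and 1.92% to 4.24%, 4.62% and 4.70% (adjusted p = 0.0361), and EIF4A1-210, which keeps the 178-base intron shown above, from 0.370%, 0.550% and 0.433% to 1.53%, 1.59% and 1.24% (adjusted p = 0.0499). The levels of all 5 rose, from 0.47 for EIF4A1-236 to 1.05 for EIF4A1-231 on the log2 scale, while the coding rows fell by 1.04 (SE 0.02). These 5 share exons and introns of 1 gene and are not independent of each other.

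HNRNPK, of an hnRNP protein that binds C-rich RNA, had 2 risers. HNRNPK-203 went from 2.94%, 3.35% and 3.30% to 7.85%, 6.29% and 6.90% (adjusted p = 0.0417), and HNRNPK-209 from 2.79%, 3.17% and 2.80% to 5.82%, 6.22% and 6.32% (adjusted p = 0.04). Both rose in level as well, by 0.72 and 0.65, and the coding rows fell by 0.57. BRD2, of a bromodomain protein, had 2 risers in share (BRD2-208, 11.8% ± 0.445 to 19.4% ± 0.699, and BRD2-209, 9.73% ± 0.264 to 15.6% ± 0.591) whose levels fell less than its coding rows (log2 -0.28, -0.32 and -1.43). The 2 BRD2 rows are other versions than those of GENCODE 29.

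PABPN1-206, of the nuclear poly(A)-binding protein, rose from 4.05%, 4.55% and 4.74% to 9.29%, 11.8% and 12.2% (adjusted p = 0.0323). Its level did not pass the test (7.43 and 8.73 TPM) and the coding rows fell by 1.17. In NSMF, a gene known from the migration of hormone-releasing neurons, 2 members fell in share (NSMF-202, 18.4% ± 1.11 to 9.52% ± 1.37, and NSMF-207, 17.8% ± 0.955 to 9.82% ± 0.938) while their levels were not called and the coding rows rose by 1.48. DDX3X-241, of another RNA helicase, fell from 9.01%, 11.3% and 10.1% to 4.41%, 4.20% and 3.85% (adjusted p = 0.0277).

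The 87 called members can be sorted by their own level and by the coding rows of their gene, summed and tested as 1 feature. Share was tested against all other rows of the gene, of which the coding rows are only a part. Of all 13861 genes with coding rows tested, 29% were lower and 27% higher after the siRNA. Of the 67 members that rose in share, 60 belong to genes whose coding rows were lower, 3 to genes whose coding rows were higher, 3 to genes not called and 1 had no coding fit. Their own level was higher in 28, not called in 34 and lower in 5. The median log2 change was 0.33 for these members and -1.04 for their coding rows. Both at once, lower coding rows and a higher member, were found in 23 of the 67, and in 58 of all 9251 members with share tested. The 67 were called for a rising share, which favours this pattern.

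Of the 20 members that fell in share, 14 belong to genes whose coding rows were higher and 1 to a gene whose coding rows were lower. The members' own level was lower in 10, not called in 9 and higher in 1, SYP-208, of the synaptic vesicle protein synaptophysin. SYP-208 rose from 0.792 to 2.15 TPM while its coding rows rose by 2.53 on the log2 scale, so its share fell from 18.0% ± 2.43 to 9.18% ± 0.586. These counts describe the called members and were not tested, since the coding rows are part of the rest of the gene against which share is taken.

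**Figure D4:**
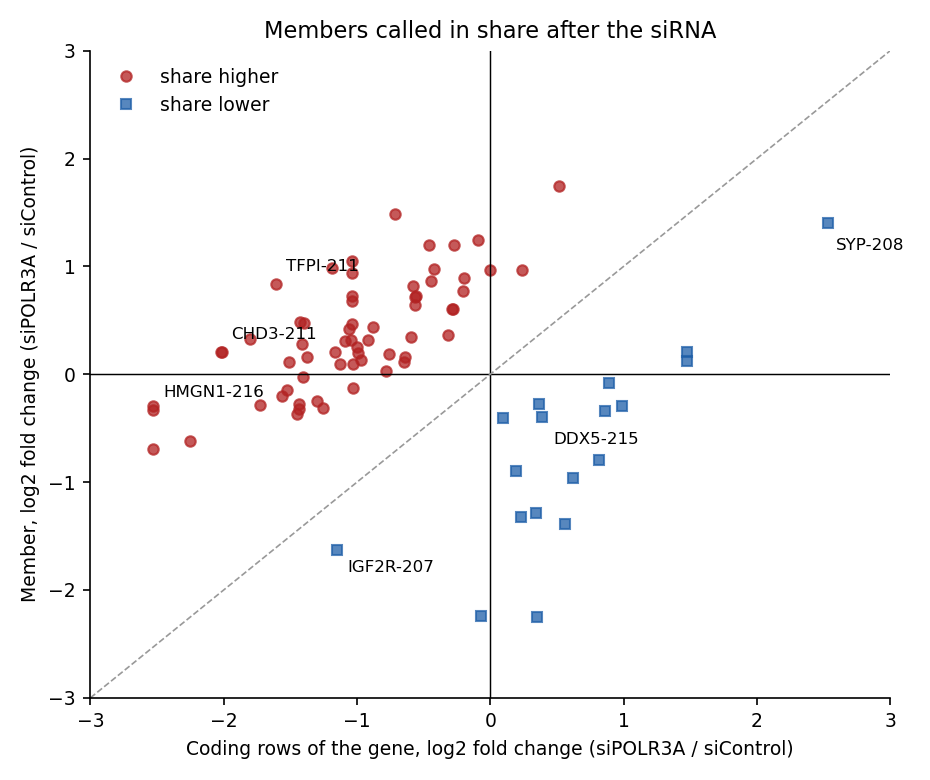
For members called in share after the siRNA, log2 fold change of the summed coding rows of the gene (x) against log2 fold change of the member (y), siPOLR3A over siControl. Red circles rose and blue squares fell in share, the dashed line marks equal change, and 81 of the 87 members lie within the plotted range. Most red points lie left of 0, where the coding rows are lower.

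Of the 87 called members, 3 were listed at 0 in every library of one group. PRKDC-207, of the DNA-dependent protein kinase gene, had 5.04, 5.24 and 4.95 TPM in siControl and was listed at 0 in all 3 siPOLR3A libraries. HEXA-205, of the beta-hexosaminidase alpha-chain gene, was listed at 0 in siControl and had 1.51, 2.15 and 2.34 TPM in siPOLR3A. A listed 0 is the quantifier's estimate for transcripts that share most of their bases with others, and no fold change is given for them. DMKN-248, of the skin protein dermokine, was listed at 0 in siControl and had 3.59, 2.22 and 1.34 TPM in siPOLR3A. HEXA-205 and DMKN-248 have means of 1.02 and 1.10 TPM over the 12 libraries, close to the threshold of the rule.

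Levels were tested on the estimated counts. After the siRNA 649 of 9041 members were called (7.18%), 437 higher and 212 lower, against 7719 of all 58745 transcripts (13.1%; 5.73% higher and 7.4% lower). Among the called members 67.3% were higher, and 78.8% (597 higher, 161 lower) when libraries were scaled by total counts alone. CLK1-210 shows the difference between level and share: CLK1 encodes a kinase of SR proteins, and the member rose from 12.0, 10.6 and 12.0 TPM to 16.1, 15.9 and 17.2 TPM (log2 0.48 ± 0.05, adjusted p = 0.00209). Its coding rows rose by 0.51, and its share of 25.2% ± 0.965 and 28.0% ± 1.29 was not called (adjusted p = 0.378).

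The number of share calls after the siRNA varied with the libraries used. With 1 library left out, 5 to 11 members were called higher and 1 to 5 lower in share, whichever library it was. Of all 39705 transcripts, 30 to 59 were then higher and 53 to 70 lower. Every one of these fits called 5 of the 87 members (TFPI-211, HMGN1-216, HEXA-205, PRKDC-207 and C7orf50-206). HEXA-205 and PRKDC-207 are listed at 0 in 1 whole group, and leaving out a library does not change that. With a pseudocount of 1 TPM the share test called 157 members higher and 59 lower, against 626 and 548 of all 39705 transcripts. A count-based test of transcript use called 17 and 12, against 153 and 146 of all 38541 transcripts it tested. Among these were only 11 of the 67 members called higher in the main fit and 2 of the 20 called lower.

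The second comparison asked the same of 4 hours of ML60218. In share, 4 of 9251 members rose (0.0432%) and 0 fell by limma's adjusted p, against 22 of all 39705 transcripts (0.0554%; 0.0403% higher and 0.0151% lower). At an unadjusted p under 0.05 there were 1313 members (14.2%; 9.48% higher and 4.71% lower), against 13.8% of all transcripts (7.36% higher and 6.44% lower). The count-based test of transcript use called 16 members higher and 2 lower, against 60 and 27 of all 38511 transcripts it tested. Among the 16 were 3 of the 4. Shares without overlap were found in 2182 members (23.6%; 15.6% higher and 7.98% lower), against 21.8% of all transcripts (11.5% higher and 10.3% lower). The median log2 change in share was 0.0481 for members and 0.0007 for all transcripts.

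Of the 4 members that rose in share, 3 were listed at 0 in every DMSO library. TRIP12-213, of a ubiquitin ligase gene, took 36.6%, 22.9% and 24.5% of its gene with ML60218 (9.21, 5.24 and 7.72 TPM). In the other experiment it was at 1.71, 3.23 and 6.83 TPM in siControl and at 6.12, 0 and 3.42 TPM in siPOLR3A, so that it also varied among replicates. ATP10D-206, of a phospholipid flippase gene, took 19.2%, 13.6% and 23.4% with ML60218, and SETD5-213, of a chromatin regulator gene, 2.68%, 3.06% and 3.09%. MRPL52-207, of a mitochondrial ribosomal protein gene, rose from 0.296%, 0.326% and 0.408% to 2.50%, 2.25% and 2.62% (adjusted p = 0.0459). Means over the 12 libraries were 1.06 TPM for MRPL52-207, 1.09 for ATP10D-206 and 1.79 for SETD5-213, close to the threshold of the rule. Calls of TRIP12-213 and SETD5-213 held without each of the 6 libraries, and those of ATP10D-206 and MRPL52-207 did not. The DMSO share of TRIP12-213 and SETD5-213 stays at 0 whichever DMSO library is left out, so their holding says little about the spread of the controls.

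Levels were called more often than shares with ML60218. Of 8896 members tested, 135 rose and 32 fell (1.88%; 1.52% higher and 0.36% lower), against 3.23% of all 59292 transcripts (1.15% higher and 2.08% lower). Without DMSO replicate 1, 2 or 3, or without ML60218 replicate 2, no member passed the threshold in edgeR. In the same fits 0, 0, 0 and 1 of all transcripts passed it. Without ML60218 replicate 1, 55 members were higher and 34 lower, against 508 and 677 of all 63142 transcripts. Without ML60218 replicate 3, 28 were higher and 8 lower, against 121 and 343 of all 62435. The sign of all 135 risers and all 32 fallers stayed the same in each of these fits. These members were called on the same libraries, so their sign could hardly change and is no separate support. DESeq2 called 587 members higher and 317 lower, against 3632 and 4516 of all 59292 transcripts. Among these members were 134 of the 135 and all 32.

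Genes of the amino acid response are switched on by the transcription factor ATF4 when amino acids or protein folding run short. Of 17 members in 7 genes of that list, 10 were higher in level and 0 lower with ML60218 (median log2 1.26), against 1.15% of all transcripts higher. STC2-203, of the stress-induced secreted protein stanniocalcin 2, had the smallest p. It went from 19.8, 18.3 and 19.7 TPM to 94.1, 110 and 126 TPM, without overlap (log2 2.35 ± 0.10, adjusted p = 0.00917). Its coding rows rose by 1.52 on the log2 scale, and its share of 37.8% ± 0.519 and 52.2% ± 1.18 did not pass the test (adjusted p = 0.0971).

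ASNS encodes asparagine synthetase, and 3 of its members rose. ASNS-215 went from 3.06, 2.67 and 3.43 TPM to 19.3, 19.9 and 22.1 TPM (adjusted p = 0.0126), ASNS-216 from 3.15, 2.16 and 2.91 TPM to 13.0, 14.7 and 15.9 TPM (adjusted p = 0.0178), and ASNS-217 from 0.392, 0.585 and 0.845 TPM to 4.50, 4.51 and 4.63 TPM (adjusted p = 0.0219). Their log2 changes of 2.55, 2.26 and 2.73 stand beside 0.95 for the coding rows of ASNS. ATF3-208 and DDIT4-203, of a stress transcription factor and an mTOR inhibitor, rose about as their coding rows did (log2 1.97 against 2.32, and 1.29 against 1.53). The DDIT4-203 row is another version than that of GENCODE 29.

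SHMT2-204, of the mitochondrial enzyme that feeds serine into one-carbon metabolism, rose from 4.12, 2.99 and 5.06 TPM to 10.1, 16.8 and 18.5 TPM (log2 1.73 ± 0.30, adjusted p = 0.0453). The coding rows of SHMT2 were not called (log2 0.09, adjusted p = 0.061). SHMT2-212, which holds 6 whole introns of coding transcripts, rose by less (4.10 and 6.50 TPM, adjusted p = 0.0348). SLC3A2-220, of an amino acid transporter subunit, rose from 2.03 to 5.36 TPM, and PHGDH-221, of the first enzyme of serine synthesis, from 3.46 to 7.50 TPM. PHGDH-207, the most abundant member of that gene, had 42.5 and 48.2 TPM and was not called (adjusted p = 0.881). In the same list 18 of the 23 genes had higher coding rows and 1 lower, against 17.2% and 19.1% of all 13927 genes. The list was chosen with earlier results of these data known, so these counts are no separate support.

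Aminoacyl-tRNA synthetases attach amino acids to tRNAs, the products of RNA polymerase III. Of their 45 members, 7 rose in level and 0 fell (median log2 0.36), against 1.15% higher and 2.08% lower among all transcripts. The 7 come from MARS1, LARS1 and the gene of GARS-204, and members of 1 gene are not independent of each other. MARS-232 went from 16.3, 17.5 and 17.2 TPM to 33.1, 37.0 and 42.8 TPM (log2 0.99 ± 0.11, adjusted p = 0.0211), MARS-211 from 11.5, 10.7 and 10.6 TPM to 24.6, 23.4 and 25.4 TPM (adjusted p = 0.0178), and MARS-212 from 7.94, 9.23 and 8.44 TPM to 15.3, 18.1 and 19.2 TPM (adjusted p = 0.0325). All 3 come from MARS1, the methionyl enzyme, whose coding rows were not called (log2 0.09, adjusted p = 0.14). LARS-210 and 2 other LARS1 members rose, as did GARS-204, at 0.885 and 2.87 TPM, whose row is another version. RARS-207, the second most abundant member of the list, was at 19.2 and 26.2 TPM and was not called. XPOT-206, of the exporter that takes tRNAs out of the nucleus, is outside the lists and was named after its value was seen. It rose from 15.7, 15.9 and 15.4 TPM to 25.6, 26.5 and 31.6 TPM (adjusted p = 0.0208).

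Other risers were also picked out after the values were seen. GART encodes a multi-step enzyme of purine synthesis, and GART-212, GART-214 and GART-217 rose to 11.5, 7.22 and 13.1 TPM from 3.31, 2.64 and 5.39 TPM, while its coding rows were not called (log2 0.05). TUBE1-207, of epsilon-tubulin, rose from 5.36 to 14.7 TPM with its coding rows up by 0.82. RBM25-212, of a splicing regulator, rose from 11.6, 12.6 and 12.0 TPM to 22.4, 24.2 and 30.2 TPM (adjusted p = 0.0192) while its coding rows fell by 0.48. ZNF207-217 rose from 6.64 to 19.7 TPM, LUC7L-213 from 1.73 to 5.03 TPM and LUC7L2-205 from 3.79 to 9.11 TPM, all with lower coding rows (log2 -0.28, -0.51 and -0.35). ZNF207 binds spindle checkpoint proteins, and LUC7L and LUC7L2 belong to the U1 snRNP side of splicing.

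Of the 135 members that rose, 38 belong to genes whose coding rows were higher, 32 to genes whose coding rows were lower, 64 to genes not called and 1 had no coding fit, where 17.2% and 19.1% of all 13927 genes were higher and lower. The 32 that fell had lower coding rows in 18. EIF4A3-208, of a core protein of the exon junction complex, fell from 17.9, 21.8 and 18.8 TPM to 9.09, 7.82 and 7.11 TPM (log2 -1.41 ± 0.17, adjusted p = 0.0245). CSNK1D-211, of a casein kinase of the circadian clock, fell from 23.3, 22.9 and 22.3 TPM to 13.8, 12.0 and 10.6 TPM (adjusted p = 0.0313), and CSNK1D-222 from 13.7 to 7.53 TPM. SRSF5-213, of an SR protein, fell from 8.65, 9.29 and 8.92 TPM to 3.76, 3.05 and 4.46 TPM (adjusted p = 0.0269), while SRSF5-212, the most abundant member of that gene, had 75.7 and 78.6 TPM and was not called. CCNL1-214, of a cyclin of splicing speckles, fell from 7.18 to 4.77 TPM.

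**Figure D5:**
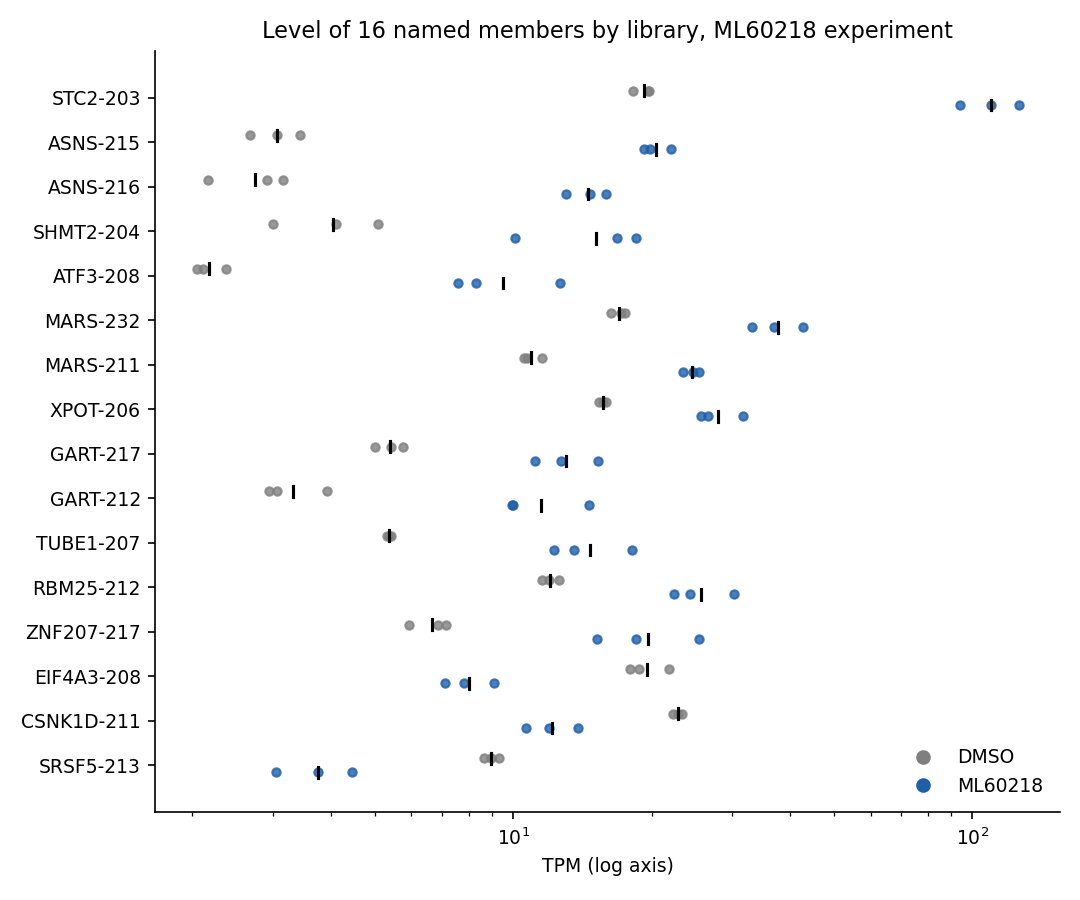
Level in TPM (x, log axis) of 16 named members in the DMSO (grey) and ML60218 (blue) libraries. Points are libraries and black ticks the means of 3. STC2-203 moved from 18.3 to 19.8 TPM with DMSO to 94.1 to 126 TPM with ML60218, and the lowest 3 members of the plot fell.

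Splicing genes are themselves rich in retained introns, and their members were counted by list, over genes chosen with earlier results known. In the siRNA experiment the share test called 0 of 34 members of SR proteins, 0 of 23 of SR protein kinases, 0 of 131 of the core spliceosome and 0 of 5 of the minor spliceosome, and among 70 of hnRNP proteins the 2 of HNRNPK. With ML60218 it called 0 in all 5 lists. Of all transcripts, 1.44% were called in share after the siRNA and 0.0554% with ML60218, so a count of 0 in such lists says little. These shares apply to the share counts of all lists below. At an unadjusted p under 0.05 these lists held, in the order just given, 6, 1, 17, 2 and 16 members in the first experiment. These are 17.6%, 4.35%, 13.0%, 40.0% and 22.9%, against 18.2% of all transcripts. In the second experiment they held 6, 4, 27, 2 and 10 (17.6%, 17.4%, 20.6%, 40.0% and 14.3%), against 13.8%. By limma at an adjusted p under 0.05 the 13 lists together gave 4 calls in share after the siRNA (2 HNRNPK members, PABPN1-206 and DDX5-215) and 0 with ML60218. SRSF3-206, 1 of the most abundant members at 426, 392 and 423 TPM with DMSO and 316, 362 and 317 TPM with ML60218, fell in level (log2 -0.43, adjusted p = 0.0492), as its coding rows did (-0.58), and its share of 49.5% ± 2.15 and 45.5% ± 1.95 was not called.

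The list counts of levels stand beside 5.73% higher and 7.4% lower among all transcripts after the siRNA, and 1.15% and 2.08% with ML60218, and several are near those shares. In level, the siRNA moved SR protein members up in 2 and down in 2 of 33, SR kinase members up in 3 of 23, hnRNP members up in 9 and down in 10 of 70, core spliceosome members up in 8 and down in 5 of 125, and minor spliceosome members down in 2 of 5. DDX39B-215, of an RNA export helicase in the nuclear retention list, rose from 43.7, 40.1 and 39.8 TPM to 50.4, 48.7 and 52.1 TPM (adjusted p = 0.00566), with a share of 21.2% and 24.4% that was not called. EFTUD2-215 and SF3B3-206, of subunits of the spliceosome, rose with their coding rows (log2 0.28 and 0.46 against 0.44 and 0.57). RNPC3-209, of a minor spliceosome protein, fell from 6.47, 5.89 and 5.91 TPM to 3.54, 4.12 and 4.57 TPM (adjusted p = 0.0112). HNRNPC-207, the most abundant hnRNP member, was at 257 and 243 TPM and not called, and HNRNPH1-222 fell from 128 to 112 TPM (adjusted p = 0.0151). With ML60218 the counts were 0 up and 2 down of 32 SR members, 0 and 0 of 23 SR kinase members, 1 and 0 of 66 hnRNP members (HNRNPH1-212, 49.7 to 75.2 TPM), 5 and 0 of 120 core members (SF3B1-208, 1.29 to 2.23 TPM, among them), and 0 and 0 of 4 minor spliceosome members.

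RNA surveillance and nuclear retention genes followed. Nonsense-mediated decay factors had 0 of 29 members called in share in either experiment, and in level 2 up and 1 down of 29 after the siRNA and 0 up and 1 down of 29, EIF4A3-208, with ML60218. MAGOHB-207 and RNPS1-226, the 2 most abundant members of that list, were at 20.6 and 21.6 TPM and at 40.5 and 44.3 TPM in the siRNA experiment and were not called. Nuclear retention and exosome genes had 1 of 51 higher in share after the siRNA and 0 with ML60218, with levels up in 2 and down in 3 of 50, and up in 1 of 48. EXOSC10-206, of the nuclear exosome's exonuclease, gave 24.5% ± 2.54 and 25.9% ± 3.03 of its gene. Genes known for detained introns had 1 of 85 lower in share after the siRNA, DDX5-215, and 0 of 85 called with ML60218. Their levels were up in 9 and down in 4 of 83 after the siRNA, and up in 3 and down in 2 of 80 with ML60218. DDX17-201, of the helicase paired with DDX5, rose from 110, 112 and 107 TPM to 136, 134 and 145 TPM with ML60218 (log2 0.19, adjusted p = 0.0353). CDK11A-220, of a kinase that acts on splicing, was not called in either experiment (7.96 and 10.6 TPM, and 8.98 and 6.90 TPM).

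The remaining lists follow the machinery that RNA polymerase III serves. Of 18 members of RNA polymerase III subunits and factors, 0 were called in share or level in either experiment by limma and edgeR (2 and 2 in share and 3 and 2 in level, after the siRNA and with ML60218, at an unadjusted p under 0.05). At that unadjusted p stood 18.2% and 13.8% of all transcripts in share, and 26.1% and 19.6% in level. POLR3A itself has no member. POLR3E-213 was at 20.1 and 20.2 TPM in the siRNA experiment and at 17.6 and 20.8 TPM in the other, and POLR3D-203 at 6.93 and 4.21 TPM and at 7.26 and 9.47 TPM. Cytosolic ribosomal protein genes had 0 of 187 called in share in either experiment. Their levels were up in 13 and down in 3 of 186 after the siRNA (5.73% and 7.4% of all transcripts), and 0 of 184 were called with ML60218 (median log2 -0.24). Heat shock genes had 0 of 29 in share, 1 of 29 higher in level after the siRNA and 0 of 27 called with ML60218, with a median of -0.44. HSPA8-211, of the constitutive chaperone HSC70, had 17.3, 17.7 and 16.5 TPM with DMSO and 13.6, 10.2 and 10.4 TPM with ML60218 (adjusted p = 0.0616), and its coding rows fell by 1.14. HSPE1-206 had 49.3 and 39.1 TPM (adjusted p = 0.145). After the siRNA the ATF4 list had 0 of 16 members called in level by edgeR (3 at an unadjusted p under 0.05) and the synthetase list 1 up and 2 down of 46, and neither had a member called in share in either experiment.

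Whether the 2 treatments moved a member's share differently was tested directly over the 12 libraries. The difference was called in 272 of 9251 members (2.94%; 100 higher with the siRNA and 172 higher with ML60218), against 3.04% of all transcripts (1.48% and 1.56%). With 1 library left out, the counts of members were 33 to 125 and 71 to 124, against 248 to 602 and 278 to 535 of all 39705 transcripts. All 12 such fits called 83 of the 272. The lowest number higher with the siRNA, 33, came without DMSO replicate 2 and the lowest number higher with ML60218, 71, without siControl replicate 1. No member was called in share in both experiments. The control groups of the 2 experiments differed as well in several of these members. RBM25-212 gave 21.2%, 22.1% and 21.0% in siControl, 15.7%, 15.4% and 16.4% in siPOLR3A, 11.0%, 12.1% and 11.7% with DMSO, and 21.4%, 23.2% and 26.4% with ML60218 (difference log2 -1.76, adjusted p = 0.00137). DDX5-215 was at 51.6% and 34.2% in the siRNA groups and at 30.1% ± 0.295 with DMSO and 35.7% ± 1.33 with ML60218, a change not called on its own (adjusted p = 0.24).

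WSB1-212, of a SOCS-box ubiquitin ligase subunit, went from 4.35%, 5.24% and 3.82% to 10.2%, 13.1% and 10.4% after the siRNA and from 22.0%, 22.8% and 20.4% to 10.5%, 11.6% and 7.71% with ML60218, where its share alone was not called (adjusted p = 0.138; difference log2 2.73, adjusted p = 0.00238). SETD5-213 had 6.10% ± 0.744 in siControl and 1.95% ± 0.973 in siPOLR3A, beside its 0 and 2.94% in the other experiment. TFPI-211, with its change from 22.2% to 54.6% after the siRNA, was at 16.2% ± 1.80 with DMSO and 19.4% ± 2.54 with ML60218 (difference adjusted p = 0.00448). CHD3-211 was at 17.7% ± 2.34 and 15.3% ± 0.609 there (difference adjusted p = 0.00404).

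By percentage points, the 3 greatest differences were those of NPIPB2-201, FBXO32-204 and ATP10D-206 on one side and of NPIPB2-205, TMEM191C-208 and VWDE-204 on the other. FBXO32-204 was at 53.3% ± 4.59 with DMSO and 55.5% ± 3.39 with ML60218, and ATP10D-206 at 24.4%, 13.5% and 25.7% in siControl and at 0%, 24.7% and 0% in siPOLR3A. NPIPB2-205 gave 24.3% ± 7.52, 37.6% ± 6.96, 38.9% ± 7.91 and 15% ± 1.79 of its gene in siControl, siPOLR3A, DMSO and ML60218, and NPIPB2-201 of the same gene 69.3% ± 8.06, 54.4% ± 8.28, 53.6% ± 7.81 and 77.8% ± 5.63. NPIPB2-201 and NPIPB2-205 together make up most of their gene, so their shares mirror each other and are not separate differences. NPIPB2 has near-identical copies on chromosome 16, so its reads may be divided among them and these values are uncertain. TMEM191C-208 gave 37.1%, 58.1%, 61.5% and 45.2%, and VWDE-204 12.7%, 23.6%, 30.6% and 4.51%, in the same order. TMEM191C also has near copies.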

How the data were processed

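RNA from HEK293T cells was measured in 4 groups of 3 libraries, grouped by their labels. The deposited table gives, per transcript and library, estimated counts (not normalized) and TPM, in the columns that salmon writes, per the file headers. The salmon version, its settings and the transcript release are not given in the sources used here. The submitters' processing notes name bcl2fastq 2.20, Trim Galore, DESeq2 and hg38 without saying what each did. Dividing reads among overlapping transcripts is an estimate, so the values of members that share bases depend on each other.

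Rows were matched to GENCODE 29 (GRCh38) without the version, and 81.57% of rows matched. Share was log2 of a transcript's TPM over that of the rest of its gene, with 0.1 TPM added to both, tested with limma 3.58.1 (trend, robust) where both had a mean of at least 1 TPM. Level was tested on the deposited estimated counts, rounded to whole numbers, with edgeR 4.0.16 (TMM, filterByExpr, robust quasi-likelihood), in R 4.3.3. Coding rows were summed per gene and tested in the same way, a fit added after the member results were seen. P-values were adjusted by Benjamini-Hochberg over all transcripts tested, at 0.05. The difference between treatments was a contrast over all 12 libraries. DESeq2 1.42.0, edgeR's diffSpliceDGE, other pseudocounts, scalings and filters, a replicate block and leaving out each library were alternatives. The scripts were tested on simulated counts with known changes, at the same threshold. With 200 members changed, the share test recovered 0 of 100 changes of 2-fold and 0 of 100 of 4-fold in either comparison. The level test recovered 3 and 20 of 100 for the siRNA comparison, and 2 and 22 for ML60218. With 4000 transcripts changed, the share test recovered 26.7% and 70.05%, and 24.85% and 68.65%. A share count of 0 therefore does not exclude changes in a few members.

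Named members are, by rule, the 8 greatest rises and 8 greatest falls in share (percentage points, called, no overlap, 1 per gene), the 3 greatest differences on each side, the 5 highest levels, the 3 on each side of the threshold and the 2 highest of each of 13 lists. A further 53 were named after their values were seen. The members and lists were chosen with earlier results of these data known.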

Additional observations from a re-analysis of the deposited data

Results flagged for a closer look

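For 42 of the named members the effect on share differed between the siRNA and ML60218 by the test of the difference itself (limma over the 12 libraries, adjusted p under 0.05 over all transcripts tested). Of all members tested 2.94% were called, and of all transcripts 3.04%. Named members were chosen in part by this difference and by called shares, so the 42 is no separate result. With 1 library left out, the call of CHD3-211 held in all 12 fits, that of ASNS-215 in 1 and that of SLC22A5-207 in 0. The values that follow are the log2 effect of siPOLR3A minus the log2 effect of ML60218.

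In 20 members the difference was below 0, so that the share moved up more, or down less, with ML60218: ATP10D-206 -6.71, SETD5-213 -5.49, DDX3X-258 -3.90, NPIPB2-201 -2.41, GPCPD1-205 -2.16, FBXO32-204 -1.93, RBM25-212 -1.76, LUC7L-213 -1.73, ZNF207-217 -1.69, IGF2R-207 -1.62, LUC7L2-205 -1.49, DDX5-215 -1.41, GARS-204 -1.39, SYP-208 -1.35, A1BG-204 -1.20, RNPC3-209 -1.19, ZNF207-211 -1.17, ASNS-215 -1.0, STC2-203 -0.94, SLC22A5-207 -0.78. ATP10D-206 and SETD5-213 are listed at 0 in every DMSO library, so the size of their values depends on the pseudocount.

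In 22 members it was above 0, so that the share moved up more, or down less, with the siRNA: VWDE-204 3.96, WSB1-212 2.73, NPIPB2-205 2.58, EIF4A1-231 2.12, EIF4A1-221 2.07, TMEM191C-208 2.07, EIF4A1-210 1.91, UBQLN4-202 1.80, TFPI-211 1.75, CHD3-211 1.66, EIF4A3-208 1.40, BRD2-208 1.25, EIF4A1-234 1.24, HMGN1-214 1.22, TMEM45A-207 1.22, A1BG-202 1.20, CSNK1D-211 1.19, HMGN1-216 1.12, CSNK1D-222 1.10, BRD2-209 1.08, SHOX2-205 1.04, HNRNPK-209 0.88. Among these are 4 members of EIF4A1, and pairs from HMGN1, BRD2 and CSNK1D, which share reads within their gene. A1BG and NPIPB2 each have a member above 0 and a member below 0. In both genes these members make up most of the TPM, so their values mirror each other. NPIPB2 and TMEM191C have near-identical copies in the genome, and how the quantifier divided their reads was not tested.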

How the results depend on the processing

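Across 5951 recomputed values of named members, 4817 kept their direction and side of the threshold, 951 kept their direction and lost the call, 32 kept it and gained one, and 151 changed sign without being called in either fit. The 4817 include results that were not called in the main fit and stayed so, and do not measure how often calls held. After the siRNA, the share call of DDX5-215 held in 3 of 13 alternatives and that of HMGN1-216 in 12. No called value changed sign under these alternatives, which reuse the libraries that gave the calls and so are no separate support. For share after the siRNA, 67 higher and 20 lower became 157 and 59 with a pseudocount of 1 TPM, 8 and 1 with no filter on low values, 17 and 12 with diffSpliceDGE, and 5 to 11 and 1 to 5 when 1 library was left out. For share with ML60218, 4 higher and 0 lower became 1 higher with a pseudocount of 1 TPM, 16 and 2 with diffSpliceDGE, and 3 to 14 and 0 to 8 when 1 library was left out. Levels after the siRNA (437 and 212) became 765 and 444 with DESeq2, 287 higher with no filter, and 178 to 241 and 109 to 128 with 1 library left out. Levels with ML60218 (135 and 32) became 587 and 317 with DESeq2, 19 lower with no filter, 17 lower with total count scaling, and 0 to 55 and 0 to 34 with 1 library left out. The difference between treatments (100 and 172) became 175 higher with a pseudocount of 1 TPM, and 33 to 125 and 71 to 124 with 1 library left out, a set of fits chosen after seeing the data. Calls over all transcripts moved as well. For share after the siRNA, 287 higher and 285 lower became 626 and 548 with a pseudocount of 1 TPM. With 1 library left out they became 30 to 59 and 53 to 70. Levels with ML60218 (680 and 1233) became 3632 and 4516 with DESeq2. The cause of these changes was not tested, except that leaving out a library leaves fewer samples.

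The replicate numbers do not pair the samples (correlations of same-numbered deviations were -0.0283 to 0.0145). With the replicate number as a block, the counts higher and lower were 0 and 0 for share after the siRNA, 0 and 0 for share with ML60218, 112 and 74 for level after the siRNA, 0 and 0 for level with ML60218, and 0 and 0 for the difference. A median member has 61.0 estimated reads per library, which limits what a change in share can show.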
